A study of Mus musculus with 4 samples.

Results

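Apela and Apln (apelin) encode short secreted peptides, and Aplnr encodes the G protein-coupled receptor that both peptides bind. These 3 genes are described here out of 18193 that carried a single symbol on the array. They were chosen by name, from a look at their log2 levels on all 4 arrays and at the difference between the tissues in each experiment, so those levels and differences are given as a description without a test. The array held 5 probe sets for them, of which 2 were for Apela, 1 for Apln and 2 for Aplnr.

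The tissues came from ARC/s mouse embryos of embryonic day 8.5 with 4 to 5 somites. The samples comprised 2 of foregut endoderm, dissected from the anterior intestinal portal, and 2 of mesoderm and ectoderm from head folds and heart, each a pool of 15 to 20 tissue pieces. Each of 2 experiments held 1 sample of either tissue. Samples numbered 1 were separated mechanically, whereas those numbered 2 were digested with trypsin and pancreatin before dissection, so that experiment and dissection cannot be told apart. No gene was altered and no agent was given in either tissue. In 1 label foregut endoderm 2 is called ectoderm, against its title, source and tissue labels, and its marker genes below were those of endoderm.

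When the gut tube and heart form, cells that carry Aplnr respond to Apela first and to apelin later. In zebrafish, Apela and its receptor guide mesendoderm cells as they move in during gastrulation, and loss of either leaves the heart small or missing. In the mouse, the receptor is known from cardiac progenitors and from vessels, apelin from the tips of growing vessels, and Apela from early gut endoderm and trophoblast.

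The labels were held against lists of marker genes, which were chosen with earlier results of these data known. Of the 15 foregut endoderm markers, 13 lay at least 2-fold higher in foregut endoderm in both experiments. Of all genes kept by a filter on low values, 3.54% did. The other markers, Foxa3 and Nkx2-1, did not pass that filter, while Foxa1, Foxa2, Cldn4 and Pax9 passed it only through the endoderm arrays. Of the 12 neural plate markers, 10 lay at least 2-fold lower in both experiments, as 1.24% of all kept genes did. Otx1, Fezf1, Emx2, Pax6, Pax3, Zic1 and Sp8 passed the filter only through the mesoderm and ectoderm arrays. The counts of both lists were thus partly fixed by the filter. Foxa1, a forkhead factor of gut endoderm, had log2 intensities of 10.92 and 10.82 in foregut endoderm 1 and 2, against 4.13 and 4.89 in mesoderm and ectoderm 1 and 2. Heart muscle was distributed otherwise. The cardiac troponin gene Tnnt2 was at 10.84 and 3.16 in foregut endoderm 1 and 2, against 2.51 and 14.20 in mesoderm and ectoderm 1 and 2. The library labelled mesoderm and ectoderm 1 had 0 of 15 heart muscle markers above a log2 value of 5 although its label names the heart, while foregut endoderm 1 had 12 of 15 above it, foregut endoderm 2 had 5 and mesoderm and ectoderm 2 had all 15. In foregut endoderm 1 their levels varied, with Actc1, a cardiac actin gene, at 12.56 and the troponin gene Tnni1 at 5.12. For this reason each member is given per array, per experiment and with single arrays left out.

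Apela was the member that separated the tissues. Its brighter probe set, 1436287_at, had log2 intensities of 7.79 and 11.50 in foregut endoderm 1 and 2, against 2.51 and 4.78 in mesoderm and ectoderm 1 and 2. On the linear scale these are 222 and 2888 in endoderm, against 5.71 and 27.4 outside it. Both endoderm arrays lay above both others, and the lowest endoderm value exceeded the highest other value by 3.02 log2 units. The difference was 5.28 log2 units in experiment 1 and 6.72 in experiment 2, or 38.8-fold and 105-fold. The mean difference was 6.0 ± 1.02 (SD over 2 experiments). Counted from the highest, it ranked 4 among 13288 probe sets kept by a filter on low values. This filter required a log2 value above 5 on at least 2 arrays. Probe set 1436287_at passed it only through the endoderm arrays, and the rank is a description only. The level in mesoderm and ectoderm 1 was only 0.23 log2 units above the lowest value of that array, so the size of the fold in experiment 1 depends on how background was removed.

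The other Apela probe set, 1442571_at, showed the same order of tissues at a lower signal. It had log2 intensities of 5.13 and 8.03 in foregut endoderm 1 and 2, against 3.19 and 2.69 in mesoderm and ectoderm 1 and 2. The groups again did not overlap, and foregut endoderm 2 was again the highest array. The differences of 1.95 in experiment 1 and 5.34 in experiment 2 averaged 3.64 ± 2.40, and this mean ranked 28 among the kept probe sets. The filter was again passed only through the endoderm arrays. In both experiments this probe set gave the smaller difference of the pair.

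Within the endoderm the experiments disagreed about the amount of Apela. Foregut endoderm 2 exceeded foregut endoderm 1 by 3.70 log2 units at 1436287_at and by 2.89 at 1442571_at. Between the mesoderm and ectoderm arrays, sample 2 exceeded sample 1 by 2.26 at the brighter probe set and lay 0.50 lower at the other (a log2 difference of -0.50). The spread of Apela between the endoderm samples was therefore wide, with an SD of 2.62 around a mean of 9.64, against an SD of 1.60 around 3.64 outside the endoderm (n = 2 each). With single arrays left out in turn, the mean difference ran from 4.15 to 7.85 at 1436287_at and from 2.20 to 5.09 at 1442571_at. The lowest of both came without foregut endoderm 2, and the highest of both without foregut endoderm 1.

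**Figure D1:**
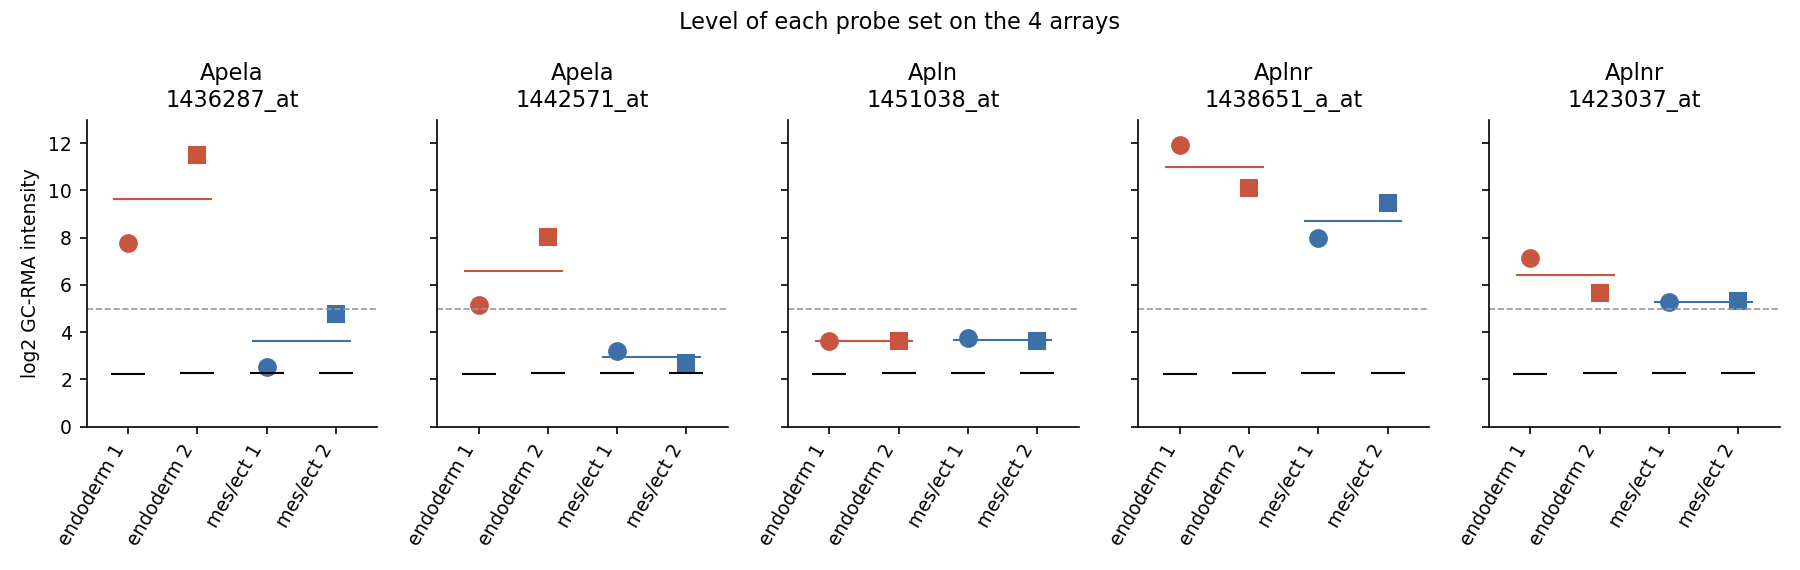
Log2 GC-RMA intensity (y axis) of the 5 probe sets of Apela, Apln and Aplnr on the 4 arrays (x axis; mes/ect stands for mesoderm and ectoderm). Circles are experiment 1 and squares experiment 2, coloured lines are means of 2 arrays, black bars mark the lowest value of each array, and the dashed line is the filter level of 5. Apela at 1436287_at sits at 7.79 and 11.50 in endoderm, above 2.51 and 4.78 outside it, while Apln stays between 3.61 and 3.77 on every array.

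Apela and Apln had a promoter entry in the RefSeq table used here (assembly GRCm38.p6), each running from 250 bases before to 50 bases after the gene's start, and both are shown because Apela separated the tissues and Apln did not. The Apela window is chr8:65037287-65037586 and the Apln window chrX:48034804-48035103, both on the minus strand and written 5′ to 3′ along the gene. Capitals mark matches, on either strand, to short motifs that were searched with the levels already known.
Apela: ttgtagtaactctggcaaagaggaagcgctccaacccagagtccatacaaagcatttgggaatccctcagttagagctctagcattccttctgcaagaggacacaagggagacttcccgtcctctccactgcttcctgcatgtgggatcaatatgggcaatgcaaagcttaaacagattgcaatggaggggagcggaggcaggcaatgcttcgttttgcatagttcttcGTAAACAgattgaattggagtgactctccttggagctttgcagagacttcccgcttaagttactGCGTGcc
Apln: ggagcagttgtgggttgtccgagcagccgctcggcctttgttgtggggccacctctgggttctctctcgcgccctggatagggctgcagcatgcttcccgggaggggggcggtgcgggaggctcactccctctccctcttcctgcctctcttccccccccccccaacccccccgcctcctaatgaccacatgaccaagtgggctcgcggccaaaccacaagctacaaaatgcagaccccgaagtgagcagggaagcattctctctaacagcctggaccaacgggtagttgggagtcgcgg

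The forkhead motif TGTTTAC, the kind of site that Foxa proteins bind, matched once in the Apela window, as its reverse complement GTAAACA with its first base at position -21 relative to the gene's start. This motif was present in 3.6% of the 32851 promoter windows of the table. The hypoxia motif GCGTG matched in the Apela window at position 44 after the start, and its variant ACGTG did not match. At least 1 of this pair was in 43.8% of all windows. The GATA motif AGATAA (in 11.2% of windows), the SOX motif ACAAT (31.0%) and the TATA motif TATAAA (13.6%) had no match in either window, and the Apln window held no match to any motif searched. The windows also differed in base composition, with 49.0% G and C for Apela and 64.0% for Apln. A match of letters is a description of the window and shows no binding.

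Apln gave no signal that could be told from background. Its probe set, 1451038_at, had log2 intensities of 3.62 and 3.64 in foregut endoderm 1 and 2, against 3.77 and 3.61 in mesoderm and ectoderm 1 and 2. The arrays spanned only 0.165 log2 units, the groups overlapped, and no array reached the filter level. In both endoderm samples the value lay 1.375 log2 units above the lowest value of its array, so it moved between these arrays only as the lowest values did. The differences were -0.15 in experiment 1 and 0.03 in experiment 2. With this single probe set, low apelin RNA and a probe set that detects it poorly cannot be told apart.

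Aplnr, the receptor gene, was bright on all arrays at its main probe set and highest in foregut endoderm. Probe set 1438651_a_at had log2 intensities of 11.92 and 10.10 in foregut endoderm 1 and 2, against 7.98 and 9.45 in mesoderm and ectoderm 1 and 2. On the linear scale this is 3874 and 1100 in endoderm, against 253 and 700 outside it. The groups did not overlap, but the gap of 0.65 between foregut endoderm 2 and mesoderm and ectoderm 2 was smaller than the SD within either tissue (1.28 in endoderm and 1.04 outside it, n = 2 each). The difference was 3.94 in experiment 1, or 15.3-fold, and 0.65 in experiment 2, or 1.57-fold. It averaged 2.29 ± 2.32 (SD over 2 experiments). Most of the separation therefore lay in experiment 1, the experiment in which more heart muscle markers were above that level in endoderm than outside it.

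The dimmer Aplnr probe set, 1423037_at, ordered the arrays in the same way. It had log2 intensities of 7.14 and 5.66 in foregut endoderm 1 and 2, against 5.27 and 5.30 in mesoderm and ectoderm 1 and 2. The differences were 1.88 in experiment 1 and 0.35 in experiment 2. Outside the endoderm it lay 2.99 and 3.02 log2 units above the lowest value of its array. These 2 arrays thus differed by 0.04 at this probe set, where the brighter probe set differed by 1.47 between them. Both Aplnr probe sets were lower in foregut endoderm 2 than in foregut endoderm 1, with differences of -1.82 and -1.49, the opposite order to Apela. With single arrays left out in turn, the mean difference ran from 1.39 to 3.20 at 1438651_a_at and from 0.37 to 1.86 at 1423037_at. Its sign could not change, as both endoderm arrays lay above both others at either probe set. Without foregut endoderm 1, these means were 1.39 and 0.37.

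Read against a fold of 2 in the same direction in both experiments, 2 of the 4 kept probe sets were higher in foregut endoderm, both of them of Apela, where 3.57% of all kept probe sets met that rule. Since these differences are what the genes were chosen by, nothing is read from this count. Neither Aplnr probe set met it, because experiment 2 fell short. In pooled tissue, fewer cells with a transcript and less of it in each cell cannot be told apart.

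**Figure D2:**
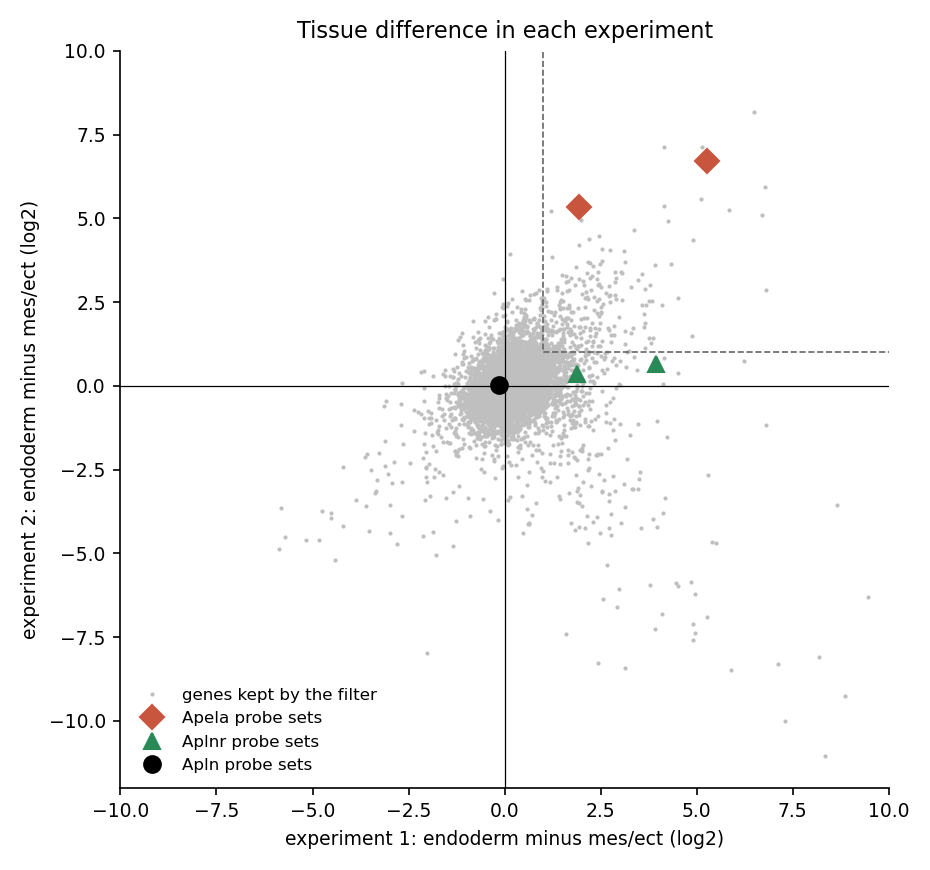
Tissue difference (foregut endoderm minus mesoderm and ectoderm, log2) in experiment 1 (x axis) and experiment 2 (y axis) for 7802 genes kept by the filter (grey points, 1 probe set per gene) and for the probe sets of Apela, Aplnr and Apln. The dashed corner encloses genes at least 2-fold higher in endoderm in both experiments. Apela lies inside it at 5.28 and 6.72 and at 1.95 and 5.34, Aplnr lies below it at 3.94 and 0.65 and at 1.88 and 0.35, and Apln lies near 0.

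The genes whose pattern over the 4 arrays was nearest to that of Apela were Spink1, Ttr, Cltrn, Tmprss2 and Afp. Likeness was taken as the root mean square difference of log2 values after each gene was centred on its own mean, among the 7802 kept genes. Spink1, a pancreatic trypsin inhibitor, was nearest at 0.58 log2 units, with 8.54 and 11.59 in foregut endoderm 1 and 2, against 2.70 and 6.34 in mesoderm and ectoderm 1 and 2. Ttr, the transthyretin carrier of thyroid hormone and retinol-binding protein, followed at 0.77, and Cltrn, the membrane protein collectrin, at 0.83. Tmprss2, a transmembrane serine protease, was at 1.06 and Afp, the major serum protein of the fetus, at 1.12. Spink1 and Ttr shared with Apela the higher level in mesoderm and ectoderm 2 than in mesoderm and ectoderm 1, whereas Cltrn was at 2.71 and 2.63 on those arrays and Tmprss2 at 2.43 and 2.53. No gene lay within 0.5 log2 units of Apela, and likeness over 4 arrays is a description only.

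The summed level of endoderm markers followed the same order of arrays as Apela at 1436287_at. Single markers did not all do so, as Foxa1, Sox17 and Prdm1 were slightly higher in foregut endoderm 1 than in foregut endoderm 2. Summed over the 15 foregut endoderm markers, the log2 of the intensity was 13.06 and 14.69 in foregut endoderm 1 and 2, against 9.72 and 11.51 in mesoderm and ectoderm 1 and 2. Such a sum rests on its most intense genes, which in mesoderm and ectoderm 2 were Krt8 (10.18), Epcam (9.04) and Krt18 (8.46). Of the 15 markers 13 passed the filter, and 1, the lung and thyroid factor gene Nkx2-1, was at the lowest value on every array. The 12 visceral endoderm markers summed to 10.80 and 13.11, against 6.90 and 8.41. Ttr and Spink1 were the highest of them in foregut endoderm 2 (12.13 and 11.59) and in mesoderm and ectoderm 2 (7.03 and 6.34). As both were named above for their likeness to Apela, this sum largely repeats that likeness. Of the visceral endoderm list 5 genes passed the filter. All 5 lay at least 2-fold higher in foregut endoderm in both experiments, or 3 with log2(value + 16). Of all kept genes, 3.54% did. Rbp4, Mttp and Afp passed the filter only through the endoderm arrays, so this count was partly fixed by the filter. Without the filter, 6 of the 12 markers met the rule. The apolipoprotein gene Apoa4 and the receptor gene Amn, which mark visceral endoderm, were at the lowest value on all 4 arrays. The part of endoderm cells in the level of Apela in mesoderm and ectoderm 2 was not tested.

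Aplnr had other neighbours. Epas1, which encodes the hypoxia-inducible factor HIF-2α and is known from endothelium, was nearest at 0.21 log2 units. Its levels were 7.86 and 5.97 in foregut endoderm 1 and 2, against 4.41 and 5.48 in mesoderm and ectoderm 1 and 2. Rasgrp3, a Ras activator found in vessels, was at 0.30, Vwc2, a secreted BMP inhibitor, at 0.41, the immediate early gene Fos at 0.42, and Pdgfrb, the PDGF receptor of mesenchyme and pericytes, at 0.43. All 5 were highest in foregut endoderm 1 and lowest in mesoderm and ectoderm 1, as Aplnr was. Only 10 genes lay within 0.5 log2 units of Aplnr. For Apln, 4484 genes lay that near, since its values hardly varied, and the nearest (Ube2cbp at 0.006, Lmln at 0.008, Tollip at 0.009, Ankrd40 at 0.018 and Nxph3 at 0.02) say only that these genes were as flat.

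Of 8 endothelial markers that passed the filter, 6 exceeded mesoderm and ectoderm by 2-fold or more in experiment 1, as Aplnr did, and lay 2-fold or more below it in experiment 2, where Aplnr did not. This order was found for 1.96% of all kept genes. Kdr, the VEGF receptor of endothelium, had log2 intensities of 7.88 and 3.65 in foregut endoderm 1 and 2, against 4.78 and 6.57 in mesoderm and ectoderm 1 and 2. Tek, the angiopoietin receptor, was at 6.40 and 4.26, against 4.23 and 6.77, and the endothelial ETS factor gene Erg at 7.01 and 2.94, against 3.51 and 5.72. In foregut endoderm 2 these 3 markers thus lay below their level in mesoderm and ectoderm 2, while Aplnr was at 10.10 and 9.45 on those arrays. Over all 20 endothelial markers the summed log2 intensity was 10.14 and 9.48 in endoderm, against 8.47 and 9.73 outside it. Unc5b, a netrin receptor gene, was above mesoderm and ectoderm each time (by 1.58 and 1.95), and the sum in foregut endoderm 2 rests on its level of 8.61 there. Pecam1 and Robo4 were at the lowest value on all arrays, and the endothelial cadherin gene Cdh5 did not pass the filter. In experiment 1 heart muscle genes were higher in endoderm too. Their sum over 15 markers was 13.67 and 10.33 in foregut endoderm 1 and 2, against 7.17 and 16.83 in mesoderm and ectoderm 1 and 2. The 10 head mesenchyme markers summed to 11.11 and 9.50, against 9.15 and 9.96. The part of these cells in the Aplnr levels was not tested.

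**Figure D3:**
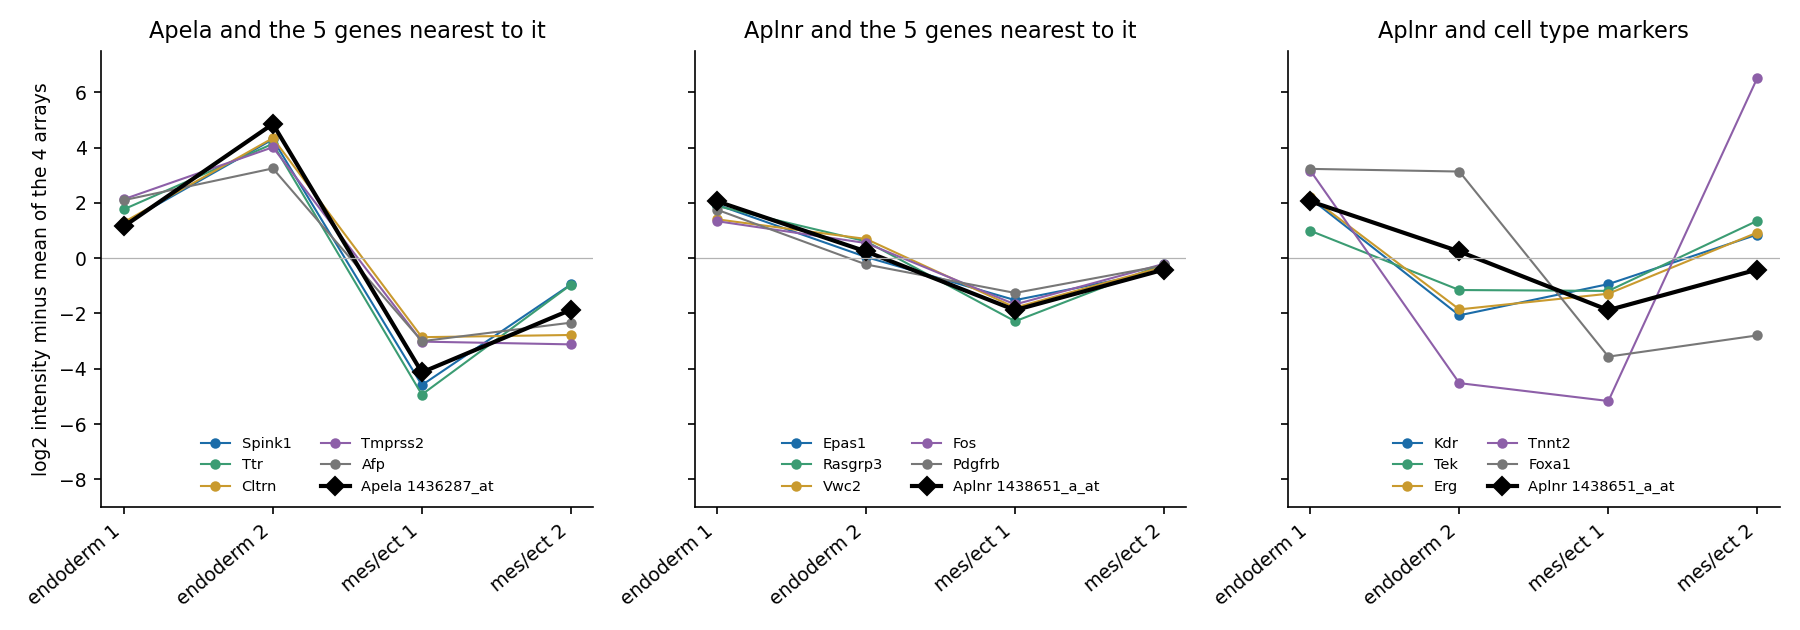
Log2 intensity minus the gene's own mean over the 4 arrays (y axis) for Apela with its 5 nearest genes (left), Aplnr with its 5 nearest genes (middle) and Aplnr with the endothelial markers Kdr, Tek and Erg, the heart marker Tnnt2 and the endoderm marker Foxa1 (right); the x axis gives the arrays. Apela peaks in endoderm 2 and Aplnr in endoderm 1, and in endoderm 2 the 3 endothelial markers lie below their own mean while Aplnr lies above its mean.

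The other genes of the pathway were taken as 6 lists with 76 entries, of which 70 had a named probe set and 42 passed the filter. With limma, a linear model with moderated errors fitted across all 7802 kept genes, 0 of the 42 reached an adjusted p under 0.05 in either direction, where 0% of all genes did. At an unadjusted p under 0.05 there were 4 of the 42, beside 353 of all 7802 genes. Once the replicate number entered the fit as a block there were 8, beside 902 of all genes. The fit with the block also gave 0 at an adjusted p under 0.05. By the rule of a 2-fold difference in the same direction in both experiments, 3 of the 42 were higher in foregut endoderm (3.54% of all genes) and 0 were lower (1.24% of all genes). A further 4 were at least 2-fold higher in experiment 1 and at least 2-fold lower in experiment 2, as 1.96% of all genes were. The counts rest on differences close to 2-fold and on single arrays. Quantile normalization, median centring, log2(value + 16) and the mean over a gene's probe sets each left 1 of the 3. Under each of these, Smad3 of the Nodal list and Vegfa of the hypoxia list no longer met the rule. Without foregut endoderm 1 the counts were 6 higher and 2 lower, without foregut endoderm 2 they were 6 and 0, without mesoderm and ectoderm 1 they were 3 and 4, and without mesoderm and ectoderm 2 they were 9 and 0, where the array left in a tissue served both differences.

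Of 11 genes for the G protein subunits, arrestins and kinases that couple to such receptors, 8 passed the filter and 0 met the 2-fold rule in either direction. The median differences of the list were -0.03 in experiment 1 and -0.42 in experiment 2, beside 0.15 and 0.01 over all genes. The inhibitory subunit gene Gnai3 was at -0.20 and -0.52 and Gnai1 at 0.14 and -0.57. Gna13, a subunit through which the receptor can act on the cytoskeleton, was at 0.29 and 0.39, Gnaq at 0.07 and -0.32, the kinase gene Grk6 at -0.38 and -0.67 and the β-arrestin gene Arrb2 at -0.14 and -1.08.

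Of 10 genes that process or break down the peptides, only 3 passed the filter, and all 3 lay higher in endoderm in both experiments, less than 2-fold so in experiment 2. Of all kept genes, 37.0% lay higher in both. Furin, the proprotein convertase, was at 1.07 and 0.30, and the convertase gene Pcsk5 at 1.49 and 0.18. Mme, which encodes neprilysin, a membrane protease that cleaves apelin, had log2 intensities of 9.18 and 6.45 in foregut endoderm 1 and 2, against 2.95 and 5.71 in mesoderm and ectoderm 1 and 2. Its differences of 6.23 and 0.74 thus shrank between the experiments as those of Aplnr did, with a mean of 3.48 ± 1.44 (SE) and a limma adjusted p of 1.

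Among related receptors of migrating cells, Ackr3 stood out. This scavenger receptor of the chemokine CXCL12 had log2 intensities of 7.80 and 7.42 in foregut endoderm 1 and 2, against 5.79 and 4.67 in mesoderm and ectoderm 1 and 2, a mean difference of 2.38 ± 0.52 (SE; limma adjusted p = 0.771). The groups did not overlap. The signalling receptor gene Cxcr4 was at -0.08 and 0.61, its ligand gene Cxcl12 at 0.55 and 0.60, and S1pr2, a sphingosine phosphate receptor gene, at 0.75 and 0.43. Ednrb, an endothelin receptor gene of neural crest, was lower in endoderm at -0.89 and -3.88. Agtr1a, an angiotensin receptor gene and a close relative of Aplnr, did not pass the filter and was chosen after its values were seen: it was at 4.76 and 5.64 in foregut endoderm 1 and 2, against 3.47 and 3.32 in mesoderm and ectoderm 1 and 2. Of the 11 genes of this list with a probe set, 4 were at the lowest value on every array.

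In zebrafish, Aplnr tunes the response of mesendoderm to Nodal. Of the Nodal pathway genes 13 had a probe set and 7 passed the filter. The ligand gene Nodal itself was between 2.93 and 2.94 on the 4 arrays. The activin receptor genes Acvr1b (0.51 and 0.50), Acvr2a (0.67 and 1.26) and Acvr2b (0.67 and 1.05) lay higher in endoderm in both experiments. Smad3, a transducer of Nodal signals, was at 8.77 and 9.40 in foregut endoderm 1 and 2, against 7.76 and 7.75 in mesoderm and ectoderm 1 and 2, a mean difference of 1.33 ± 0.37 (SE; limma adjusted p = 0.972). Smad2 was at 0.13 and -0.31. Tdgf1, the Nodal co-receptor gene Cripto, was at 7.85 and 2.27 in foregut endoderm 1 and 2, against 2.58 and 9.17 in mesoderm and ectoderm 1 and 2, high on the same arrays as Tnnt2.

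Genes reported downstream of the receptor in heart and vessels were divided. Of 8 kept genes 3 lay at least 2-fold higher in endoderm in experiment 1 and at least 2-fold lower in experiment 2, as 1.96% of all genes did: the muscle and vessel factor gene Mef2c (2.92 and -6.60), Gata5 (3.04 and -4.09), a factor gene of early heart and endoderm, and the chromatin subunit gene Smarcd3 (2.49 and -4.41), which is named because of its value. Mef2c was at 10.67 and 3.62 in foregut endoderm 1 and 2, against 7.75 and 10.22 in mesoderm and ectoderm 1 and 2. By contrast Mef2a (1.03 and 0.66), Mef2d (0.09 and 0.13) and the FGF receptor gene Fgfr1 (0.80 and 1.15) kept their sign. Klf4 (2.65 and -0.57) and Hdac5 (1.30 and -0.89), given to complete the list, did not. Of the 8 kept genes 5 thus had opposite signs in the experiments. Klf2 and Nos3, genes of flow-exposed endothelium, were below the filter.

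Apelin is known as a hypoxia-induced gene, and other genes of that response were read beside it. Of 13 such genes 11 passed the filter, with median differences of 0.39 and 0.36. Vegfa, the vessel growth factor, was at 6.40 and 7.43 in foregut endoderm 1 and 2, against 5.38 and 4.80 in mesoderm and ectoderm 1 and 2, a mean difference of 1.83 ± 0.52 (SE; limma adjusted p = 0.972). Pdk1, which encodes a kinase that restrains pyruvate entry into mitochondria, was at 1.51 and 0.85, and the oxygen sensor gene Egln1 at 0.40 and 0.52. The factor genes Hif1a (0.45 and -0.40) and Arnt (-0.20 and 0.09) had opposite signs in the experiments. Epas1, described above as the nearest gene to Aplnr, was at 3.46 and 0.48.

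**Figure D4:**
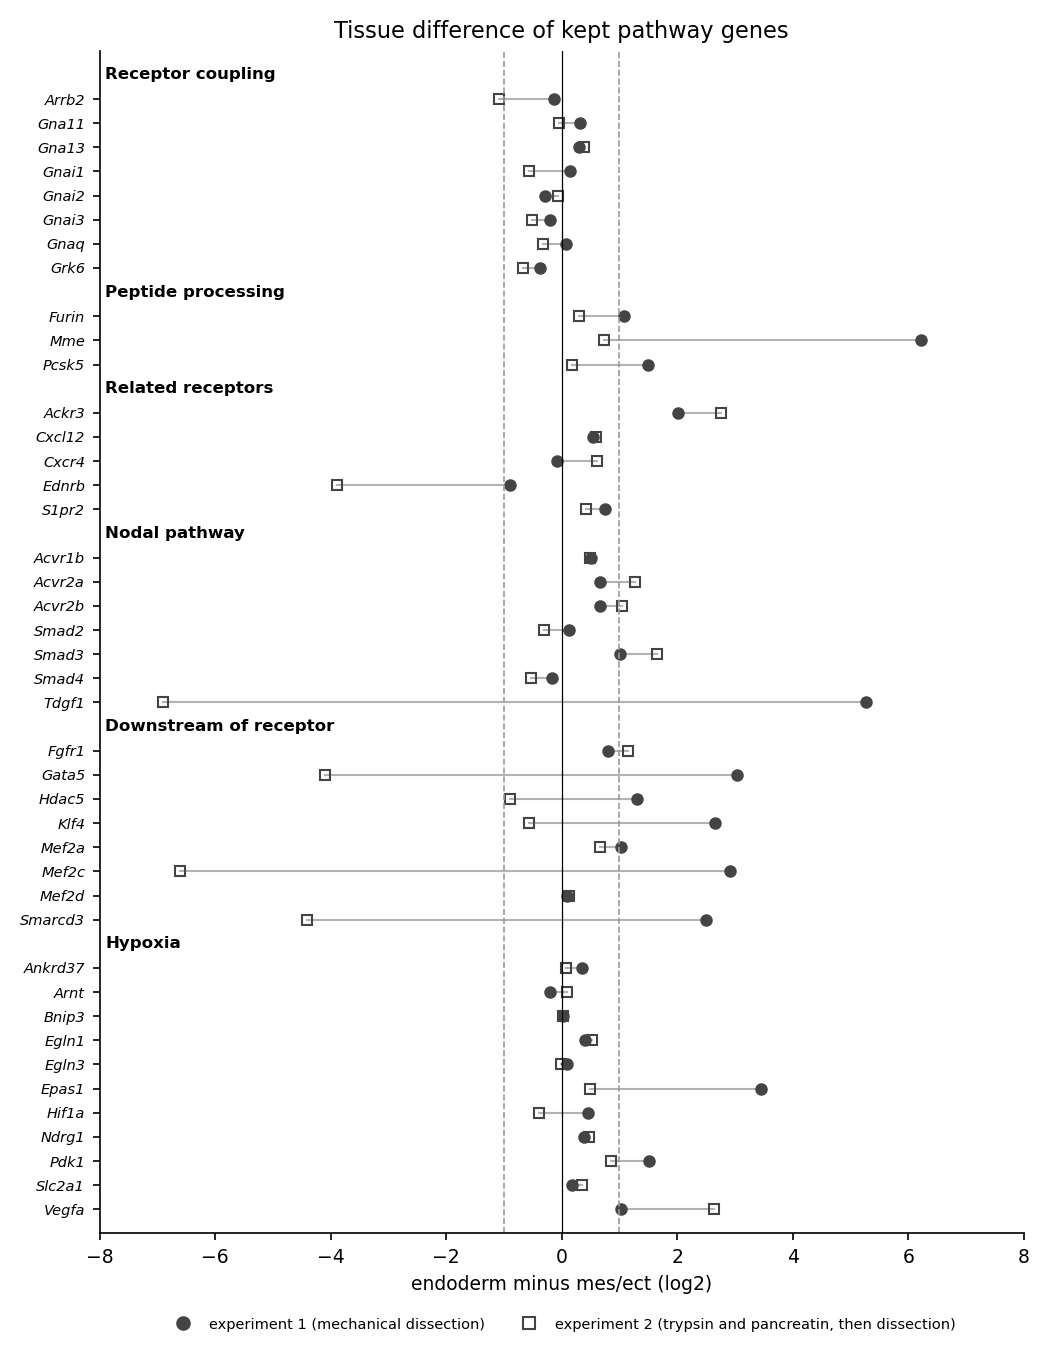
Tissue difference (foregut endoderm minus mesoderm and ectoderm, log2, x axis) of the 42 pathway genes kept by the filter, grouped by role, in experiment 1 (filled circles) and experiment 2 (open squares); dashed lines mark 2-fold. Ackr3, Smad3 and Vegfa lie past 2-fold on the higher side in both experiments, Smad3 and Vegfa narrowly in experiment 1 (1.01 and 1.02). Tdgf1, Mef2c, Gata5 and Smarcd3 span from higher in experiment 1 to lower in experiment 2.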

How the data were processed

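The table deposited holds an intensity for each probe set of an Affymetrix mouse MOE430 array, normalized by GC-RMA by the authors, who used GenePattern, per the labels and the series' design text. The submitters' processing notes name RMA, and software versions were not given in the sources used here. RNA was amplified linearly before labelling. The scale was read from the values (4.75 to 75547, median 5.72 to 6.15 per array) as linear, and log2 was taken here.

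Of 45101 probe sets, 64 controls were left out. GEO's platform annotation gave 34945 a single symbol, 932 several and 9160 none, and 34741 were matched to RefSeq genes of GRCm38.p6. The filter kept 13288 probe sets and 7802 genes (highest mean per gene). Between 12470 and 13033 probe sets per array exceeded the filter level, and 41.4% to 44.8% lay within 0.1 log2 units of the lowest value, called the lowest value in the report. The number of arrays, 2 per tissue, limits precision.

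The tissue contrast was fitted with limma 3.58.1 under R 4.3.3 (two-sided, Benjamini-Hochberg over all genes), without a block. The fit was tried on simulated data with equal, independent noise on every probe set and no difference between experiments. That trial does not show the power to find differences on these arrays. Sample numbers pair the samples, as the labels give each number its own way of dissection; deviations from tissue means correlated at 0.57 within a number across probe sets. Members and lists were chosen with earlier results of these data known. Genes named from a list were up to 4 with the largest smaller difference of the same sign and up to 2 of opposite sign, and others are said to be chosen by value. Alternatives were the block, quantile normalization, median centring, log2(value + 16), no filter, probe set means per gene and leaving out arrays.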

Additional observations from a re-analysis of the deposited data

Results flagged for a closer look

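The tissue difference had opposite signs in the 2 experiments, at least 2-fold each way, for 26 of the 101 genes of the lists that passed the filter, where 1.96% of all genes were so placed, higher in experiment 1 and lower in experiment 2. The 11 of them taken by the rule for named genes follow, and Tek and Smarcd3, given above, are also among the 26. The difference between the experiments was not tested, as each holds 1 sample of either tissue. Experiment 1 minus experiment 2, the tissue difference of the co-receptor gene Tdgf1 differed by 12.17 log2 units. Among genes downstream of the receptor the figure was 9.52 for Mef2c and 7.13 for Gata5. It was 6.02 for Kdr and 6.29 for Erg of the endothelium, 19.38 for Tnnt2 and 18.13 for Actc1 of heart muscle, 6.87 for Twist1 and 4.25 for Prrx2 of head mesenchyme, and 6.35 for Hbb-bh1 and 6.15 for Hbb-y of red blood cells. Of 7 kept head mesenchyme markers 3 were among the 26, while 4 lay higher in endoderm in both experiments, as 37.0% of all kept genes did. Of 8 red blood cell markers with a probe set, only Hbb-bh1 and Hbb-y passed the filter, and 3 were at the lowest value on every array. All 26 were higher in foregut endoderm in experiment 1 and lower there in experiment 2. Apela and Aplnr kept their sign at every probe set.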

How the results depend on the processing

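Apela and Aplnr stayed higher in foregut endoderm at all 4 of their probe sets under quantile normalization and median centring. As both endoderm arrays lay above both others at each of these probe sets, log2(value + 16) and leaving out single arrays could not change the sign. The mean difference of Apela at 1436287_at was 4.76 with log2(value + 16), which shrinks differences of dim values, and ran from 4.15 to 7.85 with arrays left out. At 1442571_at it was 2.32 with log2(value + 16), against 3.64 as deposited. That of Apln was -0.22 after quantile normalization, against -0.06 as deposited; the cause was not tested. Limma's count of probe sets at an adjusted p under 0.05 was 0 as deposited (500 at an unadjusted p under 0.05), 0 with the replicate block (1326 unadjusted) and 0 under every other setting run. Probe sets at least 2-fold higher in endoderm in both experiments numbered 474, and 616 to 1097 with arrays left out; those at least 2-fold lower numbered 133, and 204 to 525, the array left in a tissue then serving both differences. Of the 3 pathway genes on the higher side, 1 met the rule after quantile normalization, 1 after median centring, 1 with log2(value + 16) and 1 with the mean of a gene's probe sets, and leaving out arrays, an alternative chosen after seeing the data, gave 3 to 9. On the lower side the count of 0 became 1 after quantile normalization and 0 to 4 with arrays left out. Of 45 recomputed counts of single lists whose reported count was above 0, 13 moved by more than 1.5 times. The median difference of all kept probe sets was 0.10 as deposited and -0.015 after quantile normalization. Signal over background limits Apln and the Apela values outside endoderm.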
